A study of Mus musculus with 4 samples.

Results

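Notch signalling was examined at the level of transcripts in the second heart field region of E8.5 mouse embryos that carried a Hoxb1 mutation (Hoxb1Mu) and in the same region of wild-type (WT) embryos. The genes were the 4 receptors Notch1, Notch2, Notch3 and Notch4, the 4 ligands Dll1, Dll4, Jag1 and Jag2, and the target genes Hey1 and Hey2. They were chosen by name with earlier results of these data known, so counts of them beside all genes describe the list and do not test it. All 10 were found among the 15803 genes listed in the expression table. There were 2 Hoxb1Mu and 2 WT libraries. The labels give the genotype as Hoxb1Mu without describing the allele, and the study's methods describe a Hoxb1-null knock-in and RNA from several embryos combined for each replicate. They list no other mutation or treatment. Each library was made from amplified cDNA of the dissected region, so it measured a mixture of cell types, and for a gene of any one cell type, fewer cells and less RNA per cell cannot be told apart.

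Notch receptors are transmembrane proteins that are cleaved when a ligand on a neighbouring cell binds them. The released intracellular domain enters the nucleus, joins the DNA-binding protein RBPJ, and activates target genes, among them the Hey and Hes families of transcriptional repressors. In the embryonic heart and the tissues around it, the pathway is known for its roles in the endocardium, in arterial vessels, in the outflow tract and in progenitors of the second heart field, a population that supplies cells to the growing heart.

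Each library held between 31331595 and 34383760 reads in the listed genes, and between 191 and 5779 reads in each of the 10 Notch genes. Values are read counts that the authors divided by a size factor for each library, called normalised counts here. Hoxb1, the targeted gene, had 137 and 167 normalised counts in the Hoxb1Mu libraries, against 682 and 617 in the WT libraries, a log2 fold change of -2.09 ± 0.14 (SE). The Hoxb1Mu libraries thus carried less Hoxb1 RNA, with reads still present. The libraries also differed in sex-linked genes. Ddx3y, a Y-linked gene, stood at 2205 in the library Hoxb1Mu 1 and at 0.943 in the library Hoxb1Mu 2, against 2.12 and 3.85 in the WT libraries. Xist, the RNA of the inactive X chromosome, stood at 111 and 5935 in the Hoxb1Mu libraries, against 26992 and 32024 in the WT libraries. Hoxb1Mu 1 was thus alone in its Y-linked RNA, and Xist lay below the WT values in both Hoxb1Mu libraries. Y-linked RNA was nearly absent from 3 libraries, while the methods state that RNA of several embryos was combined. The sex of the embryos and their number in each library are not given in the sources used here, so it is uncertain what a replicate stands for. The part of this difference in the Notch values was not tested, and values without Hoxb1Mu 1 are given for Notch3, Jag1, Jag2, Hey1 and Hey2.

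Of the 10 Notch genes, 9 had a higher mean in the Hoxb1Mu libraries, and Dll4 had a lower one. Jag2 and Dll1 showed the widest differences among the ligands, and Notch4 and Notch1 among the receptors. None of the 10 passed the main test, limma on log2(normalised count + 1) with Benjamini-Hochberg adjustment over 15760 genes and a threshold of 0.05. That test called 0% of all genes (0 of 15760), and its smallest adjusted p was 0.0806. Hoxb1, the targeted gene, had that adjusted p and was not called either, so failing this test does not show that a gene was level. At an unadjusted limma p under 0.05, 6 of the 10 were higher in Hoxb1Mu (Notch1, Notch3, Notch4, Dll1, Jag2 and Hey1) and 0 were lower, where 8.80% of all genes tested were higher and 9.82% lower. DESeq2 on the recovered reads, with Benjamini-Hochberg adjustment, called 2 of the 10 (Jag2 and Notch1), both higher, against 2.01% of the 11788 genes to which it gave an adjusted p. The edgeR quasi-likelihood test called 0 of the 10 and 0 of all genes, with 2874 of all genes at an unadjusted p under 0.05.

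In 8 of the 10 genes both Hoxb1Mu libraries lay above both WT libraries, an arrangement that 26.4% of all genes tested showed. In 1 gene, Dll4, both lay below, as in 27.1% of all genes. The groups overlapped in the remaining gene, Hey2. The median log2 fold change of the 10 genes was 0.29, beside 0.00061 for all genes tested. All fold changes below are Hoxb1Mu over WT from limma on the log2(normalised count + 1) scale, given with their SE, unless another source is named. Fits that leave out 1 library keep a single library in 1 group, so only their log2 fold changes are given.

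**Figure D1:**
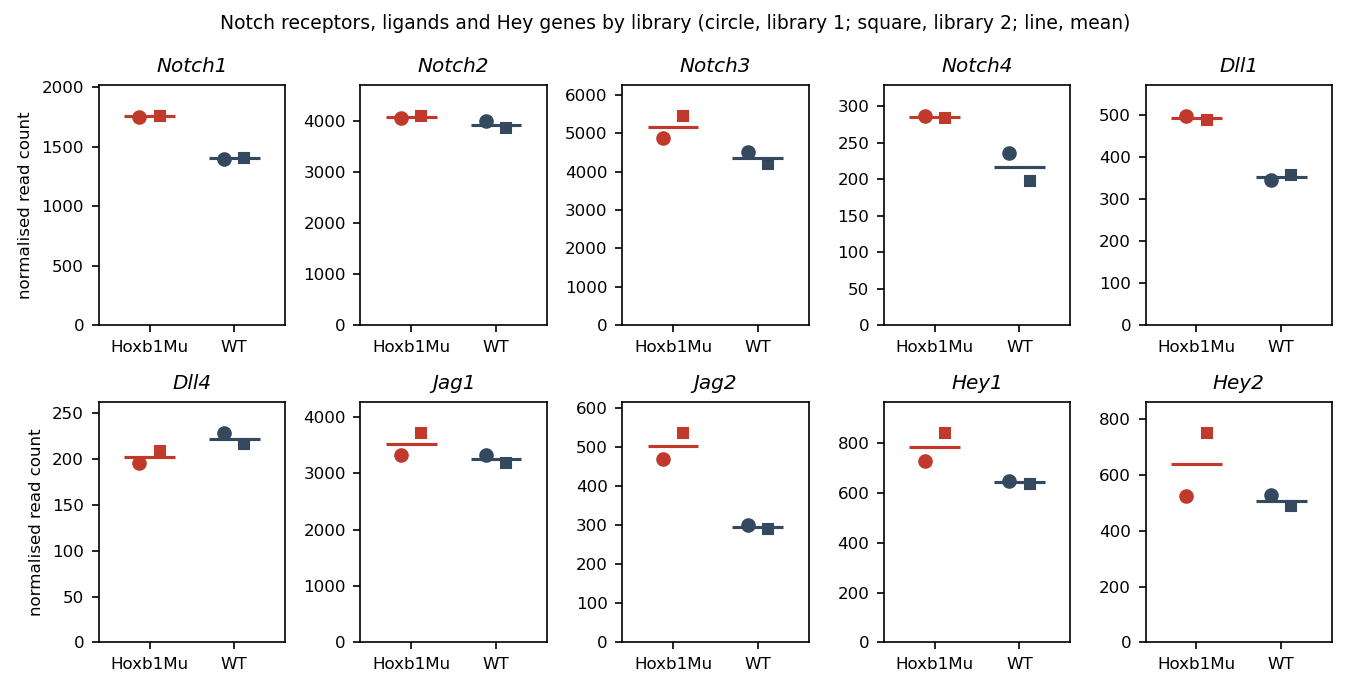
Normalised read count (vertical axis, from 0, one scale per gene) of the 10 Notch genes in the 2 Hoxb1Mu and 2 WT libraries; points are single libraries and lines are group means. Both Hoxb1Mu points lie above both WT points in 8 genes, Dll4 has the opposite arrangement, and in Hey2 the first Hoxb1Mu library (525) lies among the WT libraries (526 and 489).

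Among the receptors, Notch1 is the one best known for its roles in arterial endothelium and endocardium. Notch1 (mm10 chr2:26457903-26516663, minus strand) had 1752 and 1758 normalised counts in the Hoxb1Mu libraries, against 1396 and 1408 in the WT libraries. Replicates lay close together in both groups, at 1755 ± 4.11 in Hoxb1Mu and 1402 ± 8.59 in WT (mean ± SD, n = 2 each), and the gap between groups was wider than either spread. The log2 fold change was 0.32 ± 0.058, a 1.25-fold higher mean in Hoxb1Mu. The adjusted p was 0.155 by limma, 0.0189 by DESeq2 and 0.157 by edgeR, each with Benjamini-Hochberg adjustment, so the call rested on the tool. Without any single library the limma log2 fold change stayed between 0.32 and 0.33.

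Notch4 is a receptor found mainly in endothelial cells, and it was the least abundant of the 4. Notch4 (chr17:34564268-34588503, plus strand) had 287 and 284 normalised counts in the Hoxb1Mu libraries, against 236 and 198 in the WT libraries. The WT libraries differed from each other more than the Hoxb1Mu libraries did, and the groups did not overlap. Its log2 fold change of 0.40 ± 0.14 (95% interval 0.064 to 0.74) had a limma adjusted p of 0.221 and a DESeq2 adjusted p of 0.399. Leaving out WT 2, the lowest library, gave 0.27, and leaving out WT 1 gave 0.52.

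Notch3, the receptor typical of the mural cells of vessels, was the most abundant of the receptors per kilobase of exon. Notch3 (chr17:32120820-32166852, minus strand) had 4885 and 5451 normalised counts in the Hoxb1Mu libraries, against 4519 and 4199 in the WT libraries. The lower Hoxb1Mu library, Hoxb1Mu 1, lay nearer to the higher WT library than to its own replicate. Its log2 fold change was 0.24 ± 0.071, with a limma adjusted p of 0.185 and a DESeq2 adjusted p of 0.0555. Leaving out 1 library gave log2 fold changes from 0.17 (without Hoxb1Mu 2) to 0.32 (without Hoxb1Mu 1).

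Notch2, a receptor expressed in many embryonic tissues, was nearly level. Notch2 (chr3:98013527-98150361, plus strand) had 4056 and 4095 normalised counts in the Hoxb1Mu libraries, against 3993 and 3859 in the WT libraries. Its log2 fold change of 0.054 ± 0.049 had a 95% interval of -0.065 to 0.17, which leaves out a Notch2 difference as large as the 0.32 estimated for Notch1.

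Among the ligands, Jag2, a member of the Jagged family, had the largest estimated difference of the 10 genes. Jag2 (chr12:112907819-112929776, minus strand) had 471 and 537 normalised counts in the Hoxb1Mu libraries, against 301 and 290 in the WT libraries. The lowest Hoxb1Mu value was far above the highest WT value, with means of 503.7 ± 46.7 in Hoxb1Mu and 295.6 ± 7.20 in WT (SD, n = 2 each). The log2 fold change was 0.76 ± 0.11, a 1.70-fold higher mean. The adjusted p was 0.142 by limma, 0.00277 by DESeq2 and 0.136 by edgeR. As for Notch1, the call rested on the tool. The log2 fold change was 0.86 without Hoxb1Mu 1 and 0.67 without Hoxb1Mu 2.

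Dll1, a Delta-type ligand known for its work in somite and nervous system formation, had the next largest difference. Dll1 (chr17:15367354-15376872, minus strand) had 498 and 490 normalised counts in the Hoxb1Mu libraries, against 346 and 358 in the WT libraries. Replicates of each group differed little, and the groups stood well apart. With a log2 fold change of 0.49 ± 0.095 (1.40-fold), it had an adjusted p of 0.155 by limma and 0.0743 by DESeq2, and passed neither. Leaving out any single library gave log2 fold changes between 0.46 and 0.51.

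Jag1, the ligand whose loss in humans causes Alagille syndrome with defects of the outflow tract, was the most abundant ligand per kilobase of exon. Jag1 (chr2:137081456-137116644, minus strand) had 3322 and 3713 normalised counts in the Hoxb1Mu libraries, against 3322 and 3189 in the WT libraries. Hoxb1Mu 1 and WT 1 differed by less than 1 count, and only Hoxb1Mu 2 lay apart. The log2 fold change was 0.11 ± 0.069 (95% interval -0.058 to 0.28), with a limma adjusted p of 0.432. The log2 fold change was 0.19 without Hoxb1Mu 1 and 0.029 without Hoxb1Mu 2, so the estimate rested largely on Hoxb1Mu 2.

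Dll4, the ligand of arterial endothelium and endocardium, was the only one of the 10 with a lower mean in Hoxb1Mu. Dll4 (chr2:119325784-119335962, plus strand) had 196 and 208 normalised counts in the Hoxb1Mu libraries, against 228 and 216 in the WT libraries. The nearest libraries of the 2 groups were 208 and 216, a gap smaller than the spread within either group. The log2 fold change of -0.14 ± 0.13 had a 95% interval of -0.45 to 0.18 and a limma adjusted p of 0.599.

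**Figure D2:**
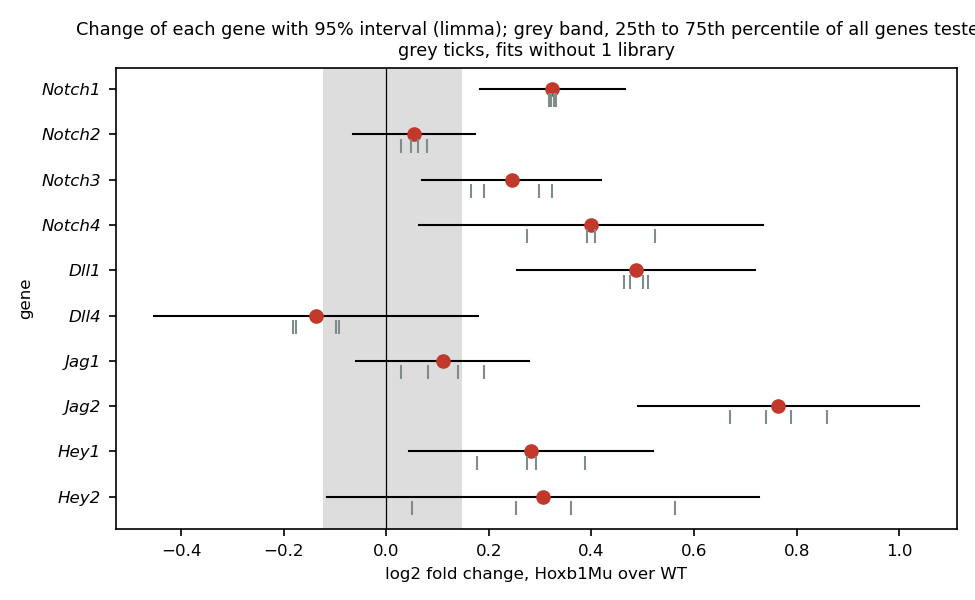
Log2 fold change of Hoxb1Mu over WT (horizontal axis) for each of the 10 Notch genes, with the limma 95% interval as a line, the 4 fits without 1 library as grey ticks, and the 25th to 75th percentile of all genes tested (-0.12 to 0.15) as a grey band. The intervals of Notch1, Notch3, Notch4, Dll1, Jag2 and Hey1 lie above 0, and the ticks of Hey2 spread from 0.050 to 0.56.

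Hey1 and Hey2 are repressors of the hairy-related family that Notch activates, known in the heart for marking atrial and ventricular myocardium. Hey1 (chr3:8663359-8667256, minus strand) had 725 and 839 normalised counts in the Hoxb1Mu libraries, against 645 and 637 in the WT libraries. The groups did not overlap, and Hoxb1Mu 2 was the higher library. Hey1 had a log2 fold change of 0.28 ± 0.097, with a limma adjusted p of 0.222 and a DESeq2 adjusted p of 0.305. Without Hoxb1Mu 1 that log2 fold change was 0.39, and without Hoxb1Mu 2 it was 0.18.

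Hey2 (chr10:30832359-30842801, minus strand) had 525 and 749 normalised counts in the Hoxb1Mu libraries, against 526 and 489 in the WT libraries. Hoxb1Mu 1 lay within the WT range, and only Hoxb1Mu 2 was high. The log2 fold change was 0.31 ± 0.17 with all libraries, 0.050 without Hoxb1Mu 2, and 0.56 without Hoxb1Mu 1. With all 4 libraries the limma adjusted p was 0.386.

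The promoter of Hey2 is shown for the letters CGTGGGAA, 1 spelling of the RBPJ site, searched on both strands. Among the 9 Notch genes with a promoter window here, only Hey2 held them. Other spellings of the site were not searched, so a window without a match may still hold a site. Hey1 had no window. RefSeq gives each window as 250 bases before to 50 bases after the gene's start (GRCm38.p6). The letters occurred in 241 of 32851 windows (0.734%), and at least 2 matches occurred in only 4 windows (0.0122%), of which Hey2 is 1. Among the 31 other pathway genes with a window, only Lfng, which encodes an enzyme that adds sugars to Notch receptors, held a match. In the stretches below, 5′ to 3′ along each gene's strand, capitals mark the matched letters. The Hey2 stretch is chr10:30842779-30843003 (minus strand), and the Lfng stretch is chr5:140607201-140607250 (plus strand).
Hey2: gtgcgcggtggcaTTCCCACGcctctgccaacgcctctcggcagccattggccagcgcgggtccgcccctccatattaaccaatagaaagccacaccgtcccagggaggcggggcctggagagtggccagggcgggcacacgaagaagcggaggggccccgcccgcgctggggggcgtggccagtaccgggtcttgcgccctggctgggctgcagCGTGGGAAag
Lfng: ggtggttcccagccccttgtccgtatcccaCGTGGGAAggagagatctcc
In Hey2 the match furthest from the start lies on the opposite strand, and the other spans the start itself. A HOX-PBX pattern, TGATNNAT on both strands, occurred in 8.85% of all windows and in none of the Notch receptor, ligand or Hey windows. These matches describe letters in a window, and binding was not measured.

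Levels were compared between genes only per kilobase of exon. In the Hoxb1Mu libraries the mean normalised count per kilobase ran from 639 for Notch3 and 604 for Jag1, through 378 for Notch2, 239 for Hey1, 139 for Hey2, 123 for Notch1 and 117 for Dll1, to 72.3 for Jag2, 52.5 for Dll4 and 35.4 for Notch4. The libraries of Notch3 and Jag1 overlapped in this order, as did those of Hey2 with Notch1 and Dll1. In the WT libraries Jag1 (559 per kilobase) and Notch3 (539) were again highest and overlapped. Dll4 (57.7) lay above Jag2 (42.4) in WT, the opposite of their order in Hoxb1Mu, and in neither genotype did the libraries of these genes overlap.

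The make-up of the receptor transcripts differed little between genotypes. Notch3 supplied 53.0% and 55.6% of the summed receptor count per kilobase in the Hoxb1Mu libraries, against 52.9% and 51.9% in the WT libraries. Notch2 supplied 33.0% and 31.3% in Hoxb1Mu, against 35.1% and 35.8% in WT, and Notch1 supplied 10.8% and 10.2% in Hoxb1Mu, against 9.28% and 9.89% in WT. Notch4 supplied under 4% in every library.

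Among the ligands, Jag1 supplied 70.7% and 72.1% of the summed count per kilobase in the Hoxb1Mu libraries, against 75.5% and 75% in the WT libraries. Jag2 supplied 8.38% and 8.71% in Hoxb1Mu, against 5.72% and 5.71% in WT, and Dll1 supplied 14.6% and 13.1% in Hoxb1Mu, against 10.9% and 11.6% in WT. Jag1 thus took a smaller share, and Jag2 and Dll1 a larger one, in both Hoxb1Mu libraries.

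Ratios between family members, taken within a library, do not depend on the size factors. The ratio of Jag2 to Jag1 counts was 0.142 and 0.145 in the Hoxb1Mu libraries, against 0.0905 and 0.0911 in the WT libraries, a 1.58-fold difference. The ratio of Dll1 to Dll4 was 2.54 and 2.35 in Hoxb1Mu, against 1.52 and 1.65 in WT (1.54-fold), and that of Notch1 to Notch2 was 0.432 and 0.429 in Hoxb1Mu, against 0.350 and 0.365 in WT (1.21-fold). The groups of each of these ratios did not overlap, and the 2-sided exact permutation p was 0.333 for each, the smallest that 2 libraries against 2 allow. The ratio of Hey2 to Hey1 was 0.724 and 0.893 in Hoxb1Mu, against 0.815 and 0.767 in WT, and the groups overlapped.

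**Figure D3:**
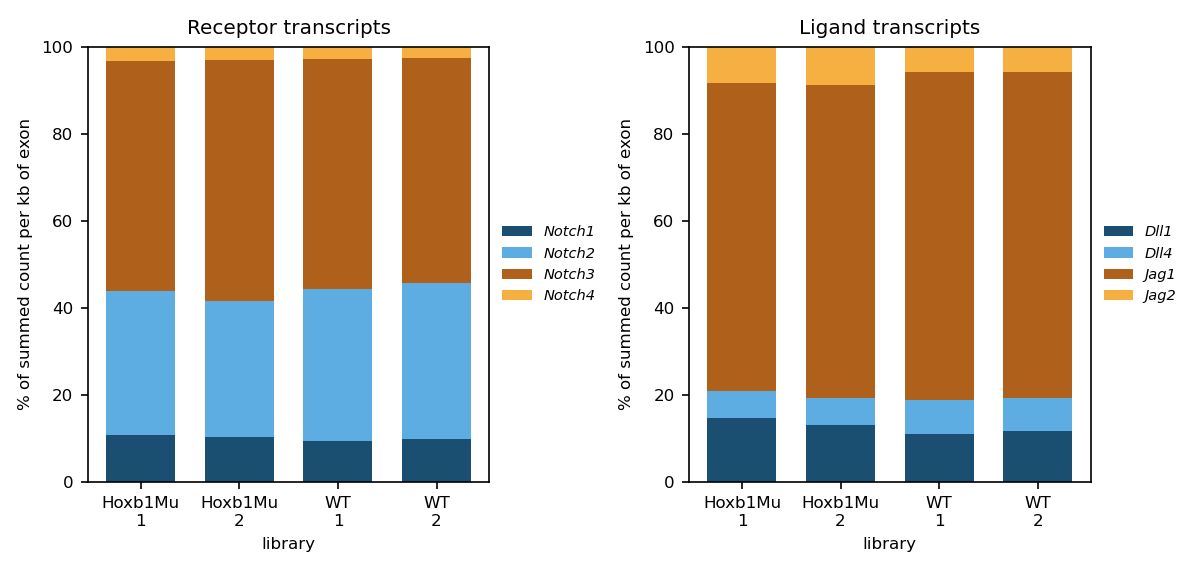
Share of each receptor (left) and each ligand (right) in the summed normalised count per kilobase of exon (vertical axis, %), one bar for each library. Notch3 is above 50% of the receptor sum in every library, and Jag2 lies above 8% of the ligand sum only in the 2 Hoxb1Mu libraries.

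The rest of the pathway was read from a list of 40 other genes set from general knowledge, of which 38 were listed and Dlk2 and Hes7 were not analysed here. With limma, DESeq2 and edgeR, 0 of the 38 passed an adjusted p of 0.05, though DESeq2 gave 6 of them no adjusted p. Their median log2 fold change was 0.016, with 21 positive and 17 negative. At an unadjusted limma p under 0.05, 4 were higher (Lfng, Mfng, Poglut1 and Mib2) and 3 lower (Dlk1, Itch and Aph1c), beside 8.80% higher and 9.82% lower among all genes tested. Both Hoxb1Mu libraries lay above both WT libraries in 15 of the 38 and below in 9, beside 26.4% above and 27.1% below among all genes tested.

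By role, log2 fold changes had a median of 0.18 over the 5 receptor glycosylation genes, 0.28 over the 4 ligand ubiquitination genes and -0.047 over the 9 receptor cleavage genes, with 6 of those 9 negative. Lfng and Mfng encode Fringe enzymes, which modify the receptors and so shift their response between Delta and Jagged ligands. Lfng had 1084 and 1022 normalised counts in the Hoxb1Mu libraries, against 909 and 743 in the WT libraries (log2 fold change 0.36 ± 0.11), and Mfng had 314 and 274 in Hoxb1Mu, against 249.7 and 205 in WT (0.37 ± 0.15). Mib2, a ubiquitin ligase that acts on Notch ligands, had 776 and 789 in Hoxb1Mu, against 583 and 618 in WT (0.38 ± 0.081, limma adjusted p 0.155). Psenen, a subunit of the gamma-secretase that cleaves the receptor and the highest of the cleavage genes, had 183 and 165 in Hoxb1Mu, against 142 and 129.8 in WT (0.35 ± 0.15).

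The widest differences downward were in Aph1c and Dlk1. Dlk1, a Delta-like protein without the usual receptor-binding domain, had 5653 and 3687 normalised counts in the Hoxb1Mu libraries, against 7219 and 7020 in the WT libraries (log2 fold change -0.64 ± 0.18, limma adjusted p 0.182). Its lower value lay in Hoxb1Mu 2, and without Hoxb1Mu 1 the log2 fold change was -0.95. Aph1c, a gamma-secretase subunit gene named after its values were seen, had 27.7 and 21.7 in Hoxb1Mu, against 44.6 and 66.4 in WT (-1.12 ± 0.32).

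Rbpj, the nuclear partner of the cleaved receptor, had 1457 and 1443 normalised counts in the Hoxb1Mu libraries, against 1398 and 1286 in the WT libraries (log2 fold change 0.11 ± 0.069). Of the other target genes, Hes1 had 1553 and 1808 in Hoxb1Mu, against 1448 and 1518 in WT (0.18 ± 0.088), and Hes5 had 121 and 105 in Hoxb1Mu, against 104 and 79.8 in WT (0.30 ± 0.21). Nrarp, a target that feeds back on the Notch complex, had 84.1 and 70.7 in Hoxb1Mu, against 88.2 and 71.2 in WT (-0.038 ± 0.22). Hes1, Hes5 and Nrarp had limma adjusted p-values of 0.337, 0.482 and 0.936. None of them passed any test, but DESeq2 gave Hes5 and Nrarp no adjusted p.

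**Figure D4:**
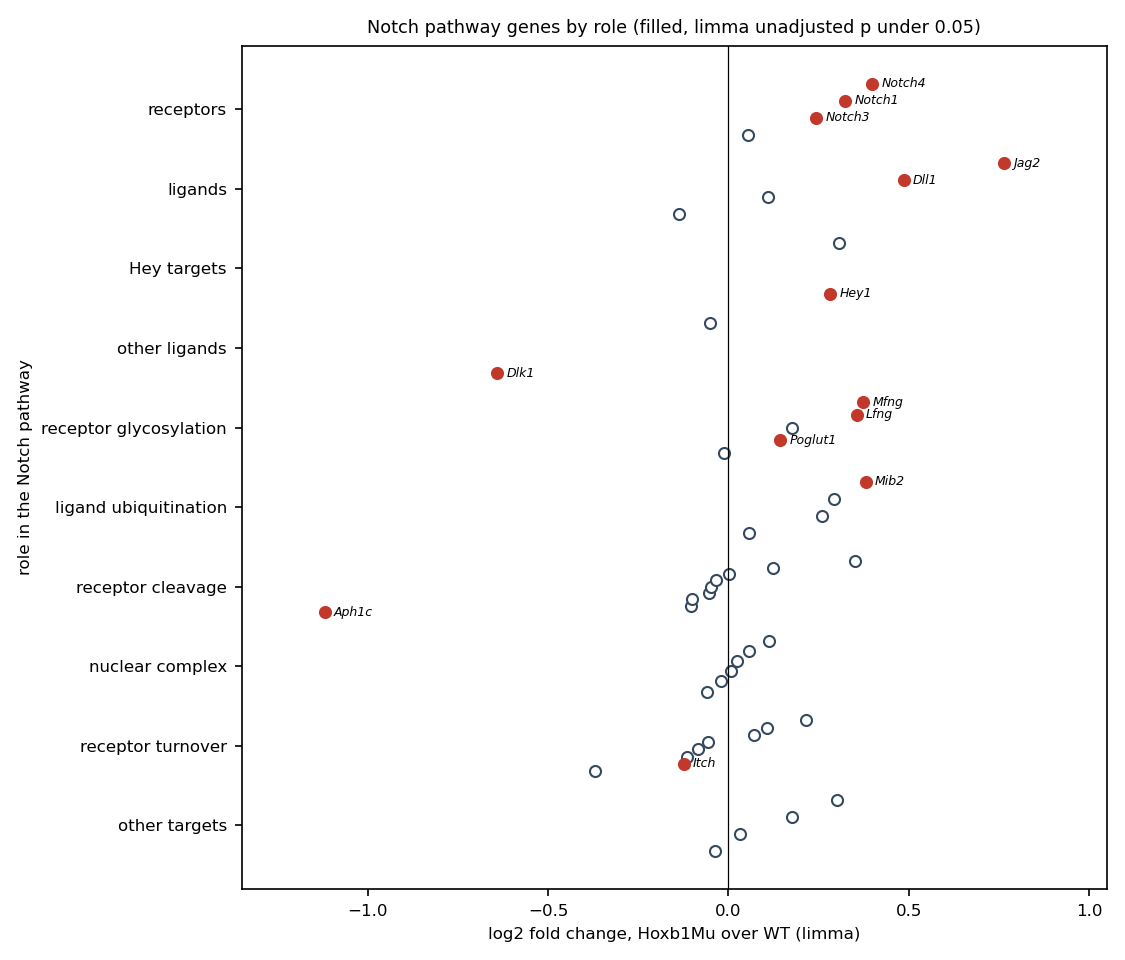
Limma log2 fold change of Hoxb1Mu over WT (horizontal axis) for the 10 Notch genes and the 38 other pathway genes, by role; filled points have an unadjusted p under 0.05, and none has an adjusted p under 0.05. Jag2 (0.76) lies furthest to the right, and Aph1c (-1.12) and Dlk1 (-0.64) furthest to the left.

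Notch genes are used by several cell types of this region, so marker lists were read in the same libraries. The 8 second heart field markers, Isl1, Tbx1 and Fgf10 among them, were all detected, with summed normalised counts of 7438 and 7809 in the Hoxb1Mu libraries, against 7279 and 6817 in the WT libraries. Tbx1, a T-box factor of that field, was called higher by DESeq2 (limma log2 fold change 0.50, DESeq2 adjusted p 0.0135), and Foxf1, a forkhead factor, had a limma log2 fold change of -0.36 (DESeq2 adjusted p 0.119). The 18 endothelial markers summed to 21375 and 20702 in Hoxb1Mu, against 19894 and 20259 in WT, and their median log2 fold change was 0.11. By DESeq2, 1 of the 18 was called, beside 2.01% of all genes higher and 2.71% lower. It was Eng, a TGF-beta co-receptor of endothelium, with a limma log2 fold change of 0.39 and a DESeq2 adjusted p of 0.0447, while Tek, an angiopoietin receptor, lay below WT in both libraries (-0.61, DESeq2 adjusted p 0.237). Among the 7 arterial markers the sums were 15024 and 15292 in Hoxb1Mu, against 15899 and 15564 in WT, with members apart in direction. Nrp1, a VEGF co-receptor, was called lower by DESeq2 (limma log2 fold change -0.42, DESeq2 adjusted p 1.43e-04). Sox17 (-0.26) and Unc5b (-0.12) also lay below WT in both libraries. Gja5 (0.69), Gja4 (0.42) and Efnb2 (0.19) lay above WT in both libraries, and the groups overlapped in Cxcr4 (-0.10). Of the arterial markers, only Nrp1 was called.

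The 8 cardiomyocyte markers summed to 69289 and 82020 in the Hoxb1Mu libraries, against 53069 and 53189 in the WT libraries, and DESeq2 called 7 of them, all higher. The 6 neural crest markers summed to 7036 and 7901 in Hoxb1Mu, against 5277 and 5366 in WT, with 4 called higher by DESeq2. The 7 neural tube markers analysed summed to 8325 and 8786 in Hoxb1Mu, against 7886 and 7512 in WT. All 7 had positive log2 fold changes (median 0.41), and 1 was called higher by DESeq2, which gave 3 no adjusted p. Of all genes with an adjusted p, DESeq2 called 2.01% higher.

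The 8 yolk sac endoderm markers summed to 72092 and 32834 in Hoxb1Mu, against 118548 and 109841 in WT, and DESeq2 called 0 of them. Their median log2 fold change was -1.18, and in all 8 both Hoxb1Mu libraries lay below both WT libraries. The 5 primitive red cell markers summed to 2545 and 857 in Hoxb1Mu, against 493 and 15780 in WT, so WT 2 stood apart. The yolk sac sum varied between the Hoxb1Mu libraries as well as between genotypes, while both Hoxb1Mu red cell sums lay within the WT range. The 4 presomitic and somite markers analysed summed to 3133 and 3398 in Hoxb1Mu, against 3485 and 2877 in WT, and Tbx6, Mesp2, Msgn1 and Ripply2 were not analysed here. Most cardiomyocyte and neural crest markers were higher by DESeq2, the neural tube markers all had positive log2 fold changes, and the yolk sac sum lay lower. These were the same libraries in which most Notch genes had higher means. The part of these cell types in the Notch values was not tested.

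**Figure D5:**
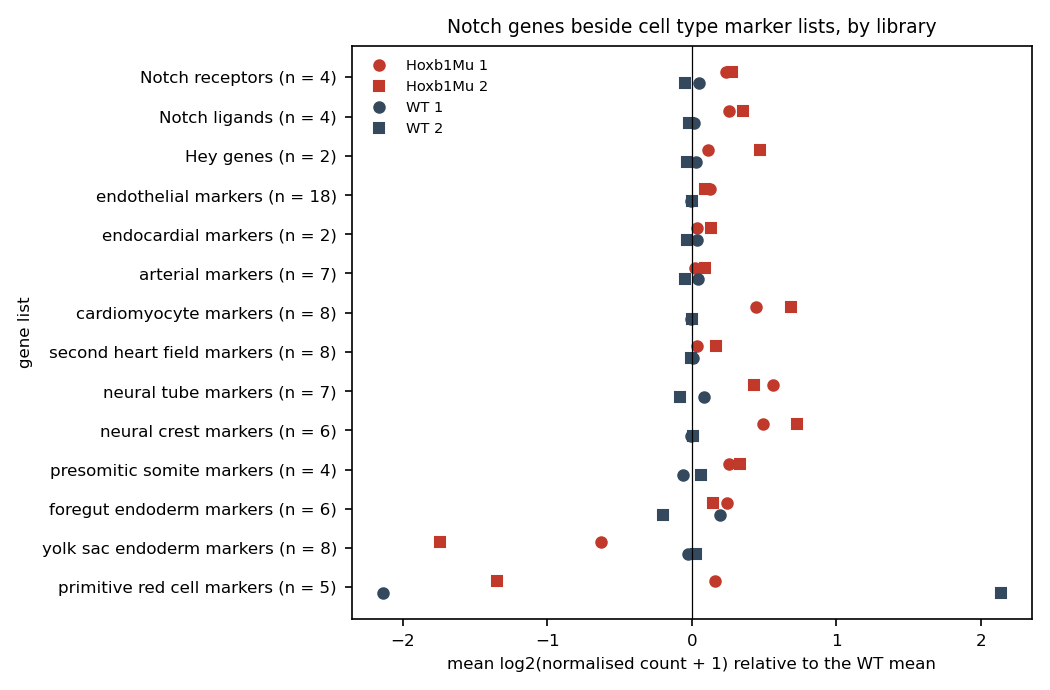
Mean log2(normalised count + 1) of the Notch receptors, ligands and Hey genes and of each marker list in each of the 4 libraries, relative to the mean of the WT libraries (horizontal axis); colours are genotypes and shapes are libraries. Both Hoxb1Mu points of the Notch receptors, ligands and Hey genes lie to the right of the WT points. The same holds for the endothelial, second heart field, cardiomyocyte, neural crest, neural tube, and presomitic and somite lists. In the presomitic and somite list Uncx (log2 fold change 1.10, 17.0 to 58.4 normalised counts) weighs most, and 2 of the 4 genes are negative. The yolk sac endoderm points lie to the left, and the groups overlap in the endocardial, arterial, foregut endoderm and primitive red cell lists.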

How the data were processed

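RNA from 4 libraries (2 Hoxb1Mu, 2 WT) was sequenced by the study. Per the labels, the processing tools were bcl2fastq 2.17.1.14, STAR 2.5.2, HTSeq, R 3.3.4 and DESeq2, with the mm10 genome; the strand setting and the annotation behind these counts are not given in the sources used here. The study's methods also describe an RSEM and edgeR analysis over an Ensembl gene build, where the labels name HTSeq and DESeq2. The deposited signal is the read count of each gene divided by a size factor of its library, and genes without expression were removed by the authors. The table also holds the authors' own comparison (mean, log2 fold change, test statistic, p and adjusted p), which was not used. Whole reads were recovered for 100% of values at a tolerance of 0.001 of a read.

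The 4 libraries were fitted with limma 3.58.1 (trend, 2-sided) in R 4.3.3 on log2(normalised count + 1) for genes with a mean of at least 10, with Benjamini-Hochberg adjustment over all of them and a threshold of 0.05. Alternatives were pseudocounts of 0.5 and 5, no minimum, a minimum mean of 50, scaling to equal totals, DESeq2 1.42.0 and edgeR 4.0.16 (quasi-likelihood) on recovered reads, and leaving out each library; DESeq2 without each library was added after seeing the data. Exon lengths and coordinates came from GENCODE vM21, which may differ from the authors' annotation, and promoter windows from RefSeq. The scripts were tested on simulated data. Depths were 31331595 to 34383760 reads in listed genes; 13 gene symbols had been turned into dates. The genes and lists were chosen with earlier results of these data known. Named were the 10 genes, other pathway genes called by limma or DESeq2, the 6 largest changes among those with a mean of at least 100, Rbpj, Hes1, Lfng and Nrarp, markers beside a result, and Hoxb1. A gene of the pathway list is not reported here. Nothing in the labels says that the libraries of a group came from separate cultures or litters, so p-values measure only the spread between these libraries. Without a known strand setting, reads of Notch1, Notch3, Dll1 and Dll4 cannot be told apart from those of antisense genes that overlap their exons, and those of Notch2 from an overlapping gene on its own strand.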

Additional observations from a re-analysis of the deposited data

How the results depend on the processing

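All 10 Notch genes kept their direction under the 15 alternatives (150 of 150 values), all of which reuse the same 4 libraries. In every gene but Hey2 the groups did not overlap, so leaving out 1 library could not reverse the limma estimate. The kept direction is thus no independent support. With limma, 0 of all genes and 0 of the 10 were called with all 4 libraries; leaving out 1 library gave 0 to 941 of all genes, with 941 without Hoxb1Mu 1 and 37 without Hoxb1Mu 2, and 0 to 3 of the 10 (Notch3, Jag2 and Hey2 without Hoxb1Mu 1). DESeq2 called 556 of all genes and 2 of the 10. With 1 library left out it called 589 without Hoxb1Mu 1, 118 without Hoxb1Mu 2, 92 without WT 1 and 71 without WT 2, and 0 to 1 of the 10. Of the other pathway genes, 0 to 1 were called with 1 library left out; the 1 was Dlk1 without Hoxb1Mu 1, by limma and by DESeq2. The median log2 fold change of the receptors lay between 0.23 and 0.33 under the alternatives, and that of the ligands between 0.26 and 0.33. No paired analysis was possible because the labels share no replicate numbers between groups. With 2 libraries a group the intervals of Dll4 (-0.45 to 0.18) and Hey2 (-0.11 to 0.73) included 0 and were wide.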
